A study of Homo sapiens with 16 samples.

Results

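The HOX genes are homeobox transcription factor genes that lie in 4 clusters, HOXA, HOXB, HOXC and HOXD, and their members were taken here as every gene whose annotated symbol was HOX, a cluster letter and a number. Of the 39 such genes in RefSeq, 27 had a probe set naming that gene alone on the PrimeView array and were analysed, out of 18132 genes in all. They were 1 of 11 HOXA genes (HOXA2), all 10 HOXB genes, all 9 HOXC genes and 7 of 9 HOXD genes. HOXD3 and HOXD11 were covered only through probe sets shared with HOXD4 and HOXD10, and the other 10 HOXA genes were not analysed here.

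HOX genes are numbered by their order along the chromosome. In vertebrate embryos, genes with low numbers are switched on earlier and nearer the head, and genes with high numbers later and nearer the tail, a relation known as collinearity. In pluripotent cells the clusters are kept silent by Polycomb repressors, and they open during gastrulation in response to WNT, FGF and retinoic acid signals, with CDX factors acting on the trunk genes. HOX proteins bind DNA together with the TALE cofactors of the PBX, MEIS and PKNOX families.

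The arrays came from H1 human embryonic stem cells (huESCs) that were induced to form definitive endoderm, the precursor of the gut, liver and pancreas, with activin A, BMP4 and FGF2 and then with activin A alone. GATA6 is a zinc finger transcription factor that is switched on in that endoderm. GATA6-depleted cells, a polyclonal line with a lentiviral shRNA against the 3′ UTR of GATA6, were collected at days 3, 4 and 5. Rescue cells, which carried the same shRNA with a doxycycline-inducible, shRNA-resistant GATA6 cDNA and received doxycycline at 60 ng/mL for 96 h, were collected at day 5. Control cells with the empty lentiviral vector were collected at day 0, while pluripotent, and at days 3, 4 and 5. There were 8 groups of 2 arrays each, and no depleted cells at day 0. The study describes the pairs of control and depleted arrays as independent differentiations. It does not state this for the 2 rescue arrays. The rescue cells thus differed from the depleted cells in the transgene, the doxycycline and a further selection, which cannot be told apart here.

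Levels are log2 values as normalised by the authors across arrays, and a difference of 1 is a doubling. A difference counted as called where limma's two-sided p, adjusted by Benjamini-Hochberg across every gene tested, was under 0.05. Levels of different probe sets are on different scales. They were set against each other only as ranks of brightness, by the lower quartile and median of the array and in the choice of probe set. A gene was termed near background in a group where its mean lay below the lower quartile of genes on the array (3.36 to 3.50 over the 16 arrays). Such a level says only that the probe set was among the dimmer ones, and differences there are given on the log2 scale without a fold. These are bulk samples, in which fewer cells that express a gene and less RNA per cell cannot be told apart.

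GATA6 itself read 9.76 and 9.90 in depleted cells at day 3, 7.92 and 6.62 at day 4 and 6.37 and 6.62 at day 5, against 11.4 to 11.6 in control cells at days 3 to 5. It read 8.43 and 8.31 in rescue cells, and whether the probe set reads the transgene was not examined. The mean of 7 pluripotency markers (POU5F1, NANOG, SOX2 and others) was 9.71 and 9.75 in depleted cells at day 5. That mean was 6.59 and 6.61 in rescue cells and 8.63 and 8.88 in control cells at day 5, against 10.05 and 10.41 at day 0. In depleted cells at day 5, 6 of the 7 were above control and 1 below (16.5% and 16% of all genes). The part of such cells in the HOX differences was not tested. The 10 definitive endoderm markers (SOX17, FOXA2, CXCR4 and others) averaged 6.43 and 6.50 in depleted cells at day 5 at the lowest and highest array, 8.89 and 8.91 in rescue cells, and 9.99 and 10.3 in control cells at day 5, against 3.52 and 3.55 at day 0, when 5 of them were near background. The hybridisation control bioB read 7.12 to 7.17 on the rescue arrays and 7.54 to 7.58 on the day 0 arrays, below the 8.22 to 8.85 of the other 12 arrays, so a technical step that set those 4 arrays apart cannot be told apart from their groups.

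The chosen probe sets of most HOX genes read dim and flat throughout. Of the 27 members, 15 were near background in all 8 groups, which is 55.6% against 20.2% of all genes. A further 4 were near background in some groups (HOXB2, HOXB8, HOXC9 and HOXD1), and 8 lay above the lower quartile in every group. In 23 members every group mean was below the array median (5.46 to 5.64). The exceptions were HOXB2, HOXB6, HOXB13 and HOXD10. The distance between the highest and the lowest group mean was at least 1 in 4 members (HOXB2, HOXB6, HOXB9 and HOXD1), or 14.8% against 30.8% of all genes, with a median of 0.42 over the members against 0.65 over all genes.

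Of the 27 members, 7 were called in at least 1 comparison: HOXB2, HOXB4, HOXB6, HOXB7, HOXB9, HOXC8 and HOXD1. The other 20, with ranges of group means of 0.21 to 0.77, were called in none of the 10 comparisons, the lowest adjusted p in limma being 0.0726 (HOXB8, depleted cells at day 5 less control cells at day 0, 0.77 ± 0.28, SE). Of the genes not near background in any group, HOXB3, HOXB13, HOXC5, HOXC13 and HOXD10 had ranges of 0.29, 0.31, 0.21, 0.42 and 0.28. Low signal limits what can be seen: 17 of the 27 lay below the lower quartile of genes by mean level, where 9.82% of genes were called between depleted and control cells at day 5, against 32.6% over all genes. In the map of changes from day 0, the largest departures lie at HOXB2, at the adjacent genes HOXB6 to HOXB9 and at HOXD1. HOXB8 is among them without a call. HOXB3 is drawn there by its brightest probe set, and another of its probe sets rose by 2.78 in control cells between day 0 and day 5, as described below.

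**Figure D1:**
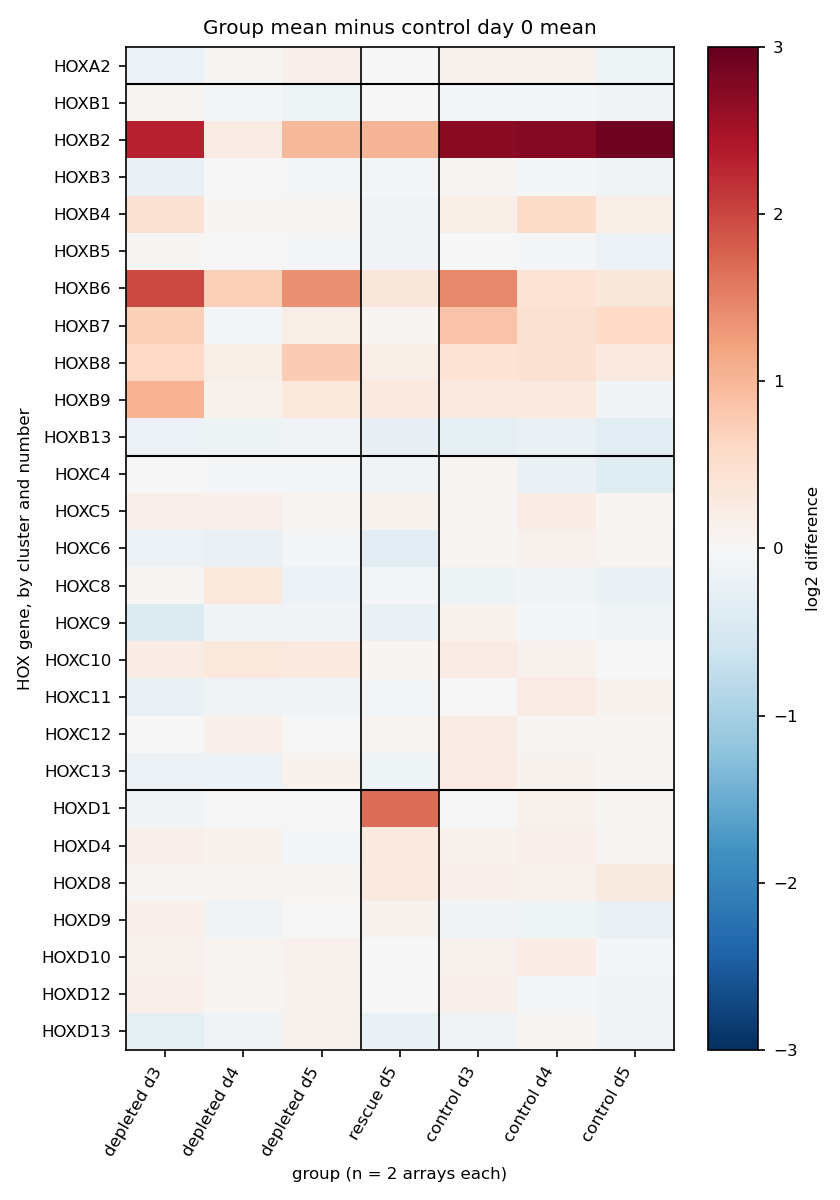
Group mean minus the control day 0 mean (log2, colour scale) for the 27 HOX genes, ordered by cluster and number, in depleted, rescue and control cells; each column is a mean of 2 arrays. HOXB2 reached 2.93 in control cells at day 5, HOXB6 was above day 0 in depleted cells and, by 1.45, in control cells at day 3, and HOXD1 stood out in rescue cells only.

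In control cells, the onset of endoderm formation was accompanied by a rise of 3 HOXB genes. Between control cells at day 3 and at day 0, HOXB2, HOXB6 and HOXB7 were called higher and none lower, which is 3 of 27 members, against 27.8% of all genes called in either direction. The median difference over the members was 0.11, against -0.01 over all genes. No HOXC or HOXD member and no member numbered 9 to 13 was called. By day 5 only HOXB2 was called relative to day 0, with 34% of all genes called. The comparisons share the day 0 arrays.

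HOXB2, which is needed in mice for the facial nerve region of the hindbrain, read 5.77 and 4.98 in control cells at day 3, 6.04 and 4.79 at day 4 and 6.17 and 5.01 at day 5, against 2.54 and 2.79 at day 0. Every differentiated control array thus lay above both day 0 arrays, and replicate 1 lay above replicate 2 at each of days 3, 4 and 5. The difference from day 0, at which HOXB2 was near background, was 2.71 ± 0.46 at day 3 (SE, adjusted p = 6.91e-04 in limma) and 2.93 ± 0.46 at day 5 (adjusted p = 2.84e-04).

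HOXB6, known in mice for patterning of the neck vertebrae and ribs, read 5.86 and 5.05 in control cells at day 3, 4.54 and 4.27 at day 4 and 4.43 and 4.24 at day 5, against 4.00 on both day 0 arrays. At day 3 it was 2.73-fold above day 0 (1.45 ± 0.25 log2, SE, adjusted p = 8.12e-04 in limma). Both day 3 arrays lay above all day 4 and day 5 arrays, a difference that was not tested, and at day 5 the difference from day 0 was 0.34 ± 0.25 (adjusted p = 0.358).

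HOXB7, the next gene by number, was near background in all 8 groups and read 3.18 and 3.10 in control cells at day 3, against 2.14 and 2.44 at day 0. The groups did not overlap, and the difference was 0.85 ± 0.29 log2 (SE, adjusted p = 0.0449 in limma). It read 2.73 and 3.27 in depleted cells at day 3, 2.22 and 2.27 at day 4 and 2.72 and 2.26 at day 5, and 2.37 and 2.34 in rescue cells, against 3.27 and 2.24 in control cells at day 4 and 3.14 and 2.64 at day 5. The call at day 3 was lost when any 1 of 8 arrays was left out, the 4 of the comparison among them (0.70 to 0.99 over all 16 omissions). The only HOX antisense transcript with a probe set of its own, HOXB-AS3, also rose between control cells at day 3 and day 0, by 0.49 log2, and was called in no other comparison described here.

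Among control groups, the mesoderm markers were highest at the same day. Their mean over 17 genes (TBXT, MESP1, MIXL1, TBX6 and others) was 6.17 and 6.44 on the control arrays of day 3, against 4.25 and 4.40 at day 0, and 9 of the 17 rose with none falling, where 13.2% of all genes rose and 14.6% fell. At day 3 only FOXC2 and TBX20 were near background. All 10 definitive endoderm markers rose between the same groups. By day 5 the mesoderm mean was 4.88 and 5.11 in control cells, while HOXB2 was still called above day 0. The part of mesoderm or endoderm cells in the HOXB signal was not tested.

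Few HOX genes were called between depleted and control cells, and the largest difference was that of HOXB2. At day 3, 1 of 27 members was called (HOXB9, higher), or 3.7%, near the 3.75% of all genes. At day 4, 3 were called (HOXC8 higher, HOXB2 and HOXB4 lower), against 28.2% of all genes. At day 5, 2 were called (HOXB6 higher, HOXB2 lower), against 32.6% of all genes. Among genes below the lower quartile by mean level, where 17 of the 27 lay, 1.04%, 7.26% and 9.82% were called at days 3, 4 and 5. The median difference over the members was -0.02, -0.05 and 0.06 at days 3, 4 and 5, against -0.01, -0.01 and 0.04 over all genes. By the chosen probe sets, no member of the HOXD cluster was called at any of these days, and HOXC8 was the only one of the HOXC cluster. A dimmer HOXD8 probe set, fitted by itself, was called lower at day 4, as given in the last section.

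**Figure D2:**
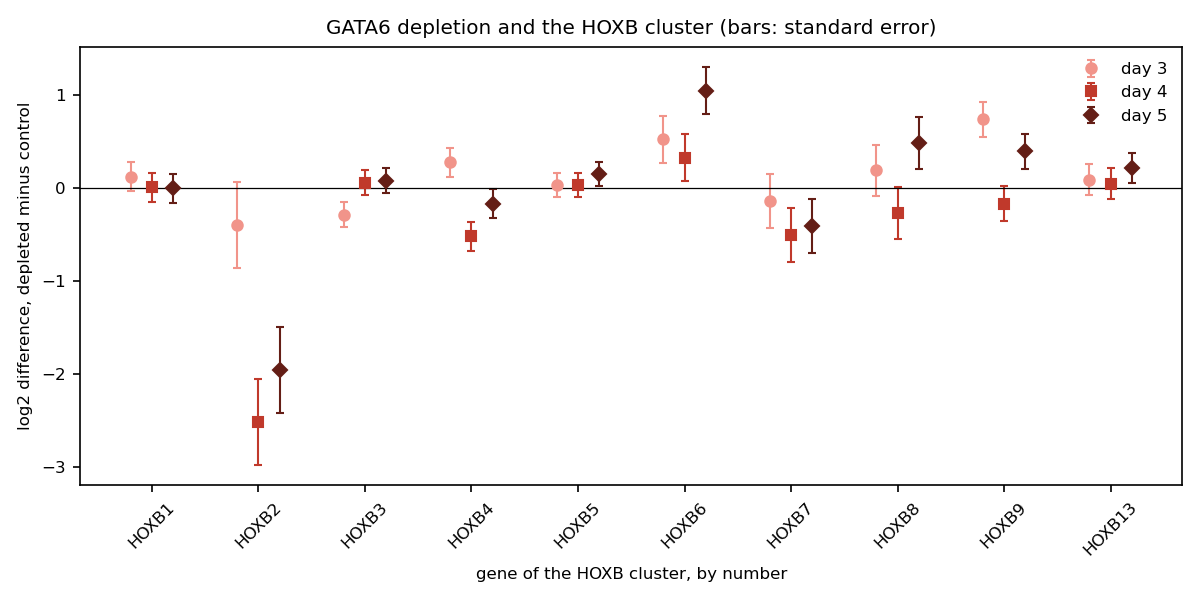
Log2 difference between GATA6-depleted and control cells (points) with its standard error (bars) for the 10 HOXB genes, ordered by number, at days 3, 4 and 5 (2 arrays per group). HOXB2 lay at -2.51 and -1.96 at days 4 and 5, while HOXB6 lay at 1.04 at day 5 and HOXB9 at 0.73 at day 3.

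In depleted cells HOXB2 read 4.39 and 5.55 at day 3, against 5.77 and 4.98 in control cells, and these groups overlapped (-0.40 ± 0.46, SE, adjusted p = 0.745 in limma). At day 4 it read 2.74 and 3.07 in depleted cells, against 6.04 and 4.79 in control cells, and at day 5 it read 3.64 and 3.62 in depleted cells, against 6.17 and 5.01 in control cells. The groups were well apart at both days, and at day 4 HOXB2 was near background in depleted cells.

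The difference in HOXB2 was -2.51 ± 0.46 log2 at day 4 (SE, adjusted p = 0.00119 in limma) and -1.96 ± 0.46 at day 5, or 3.88-fold lower in depleted cells (adjusted p = 0.00555). The day 4 difference was called with any 1 array left out. The day 5 difference lost its call without control day 5 replicate 1, at -1.38 (adjusted p = 0.0718). HOXB2 in depleted cells at day 5 exceeded control cells at day 0 by 0.97 ± 0.46, which was not called (adjusted p = 0.182).

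HOXB6 went the other way. It read 5.23 and 5.53 in depleted cells at day 5, against 4.43 and 4.24 in control cells, without overlap. HOXB6 was thus 2.06-fold higher in depleted than in control cells (1.04 ± 0.25 log2, SE, adjusted p = 0.00652 in limma). The call was lost without depleted day 5 replicate 2 (0.90). Within depleted cells its group mean was lower at day 5 (5.38) than at day 3 (5.97), a difference that was not tested. At day 3 the values were 5.73 and 6.22 in depleted cells, against 5.86 and 5.05 in control cells, and at day 4 they were 5.00 and 4.45 in depleted cells, against 4.54 and 4.27 in control cells, so the groups overlapped at both days. Depleted cells at day 5 stood 2.60-fold above control cells at day 0 (1.38 ± 0.25, adjusted p = 0.00222), the only member called in that comparison, in which 18.5% of all genes were called.

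The remaining calls were smaller. HOXB9, which acts on the upper ribs in mice, read 4.78 and 4.63 in depleted cells at day 3, against 4.21 and 3.74 in control cells. It was 1.66-fold higher in depleted cells, without overlap (0.73 ± 0.18 log2, SE, adjusted p = 0.0473 in limma). This call was lost in 11 of the 16 omissions of 1 array, 3 of the 4 arrays of the comparison among them (0.49 to 0.97). HOXB9 overlapped between depleted cells (4.00 and 3.57) and control cells (4.11 and 3.80) at day 4, and at day 5 it read 4.15 and 3.81 in depleted cells, against 3.62 and 3.56 in control cells (0.39 ± 0.18, adjusted p = 0.132). It read 3.95 and 3.97 in rescue cells, and 3.71 and 3.63 in control cells at day 0.

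HOXB4, known in mice for the upper neck vertebrae and in culture for the expansion of blood stem cells, read 4.28 and 4.18 in depleted cells at day 4, against 4.83 and 4.68 in control cells. The groups did not overlap, and HOXB4 was 1.44-fold lower in depleted cells (-0.52 ± 0.16 log2, SE, adjusted p = 0.024 in limma). The call was lost without either depleted array of day 4 or control day 4 replicate 1. Elsewhere HOXB4 read 4.88 and 4.44 in depleted cells at day 3, 4.13 and 4.34 at day 5 and 4.08 and 4.16 in rescue cells, against 4.10 and 4.31 in control cells at day 0, 4.40 and 4.37 at day 3 and 4.56 and 4.25 at day 5.

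HOXC8, a gene of the trunk that acts in mice on ribs and forelimb motor neurons, was near background in all 8 groups. It read 2.84 and 2.69 in depleted cells at day 4, against 2.37 and 2.38 in control cells, without overlap (0.39 ± 0.12 log2, SE, adjusted p = 0.0241 in limma). The call was lost without depleted day 4 replicate 1 or either control array of day 4. Elsewhere HOXC8 read 2.44 and 2.53 in depleted cells at day 3, 2.34 and 2.20 at day 5 and 2.40 and 2.39 in rescue cells, against 2.36 and 2.55 in control cells at day 0, 2.37 and 2.24 at day 3 and 2.15 and 2.36 at day 5. With the mean of all its probe sets in place of the brightest, the difference was 0.19 for HOXC8 (adjusted p = 0.223) and -0.27 for HOXB4 (adjusted p = 0.0969).

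Whether the effect of depletion changed between days was tested directly. Relative to day 3, the day 4 effect was lower in 3 of 27 members and higher in none, with 15.3% of all genes called. These were HOXB2 (-2.11 ± 0.65 log2, SE, adjusted p = 0.0466 in limma), HOXB4 (-0.80 ± 0.22, adjusted p = 0.0284) and HOXB9 (-0.90 ± 0.26, adjusted p = 0.0339). These calls were near the threshold and were lost in 11, 6 and 7 of the 16 omissions of 1 array. For HOXB2 and HOXB9 those omissions included arrays outside the comparison, which leave the difference as it was and change only its SE. With the mean of both HOXB4 probe sets, its value was -0.41 and the call was lost (adjusted p = 0.111). Between day 5 and day 4 limma called 0 members and 0.0938% of all genes, and 1 member had an unadjusted p under 0.05 (HOXC8).

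**Figure D3:**
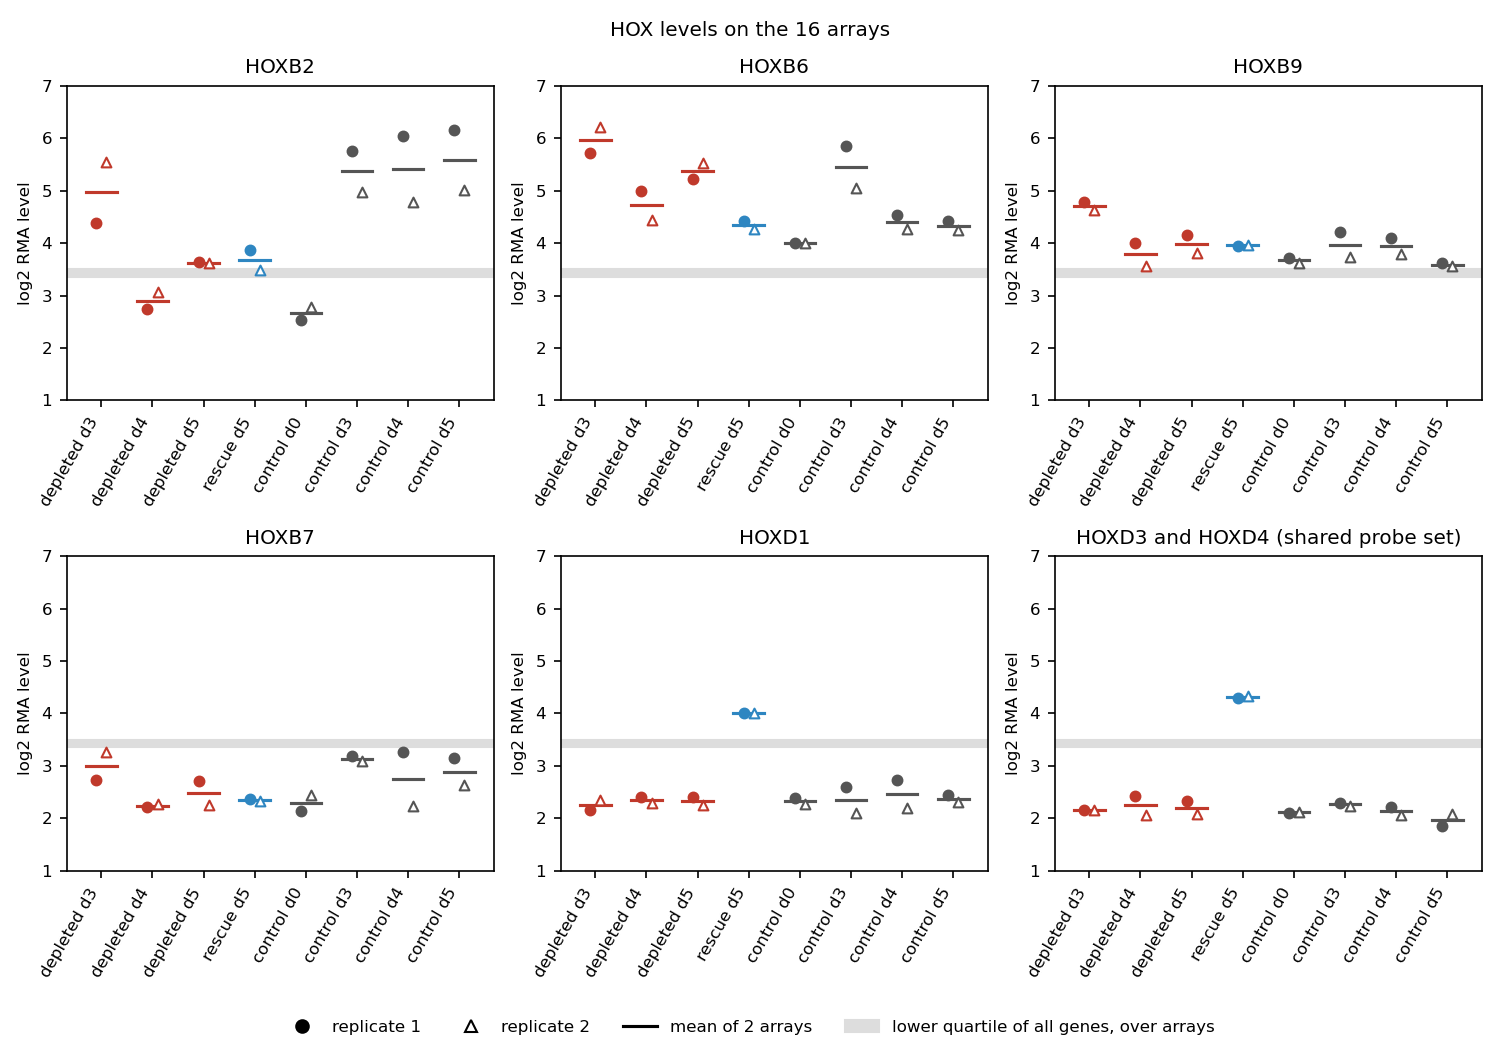
Log2 level on each of the 16 arrays (circles, replicate 1; triangles, replicate 2; lines, mean of 2) for HOXB2, HOXB6, HOXB9, HOXB7, HOXD1 and the probe set shared by HOXD3 and HOXD4, in depleted, rescue and control cells; the grey band is the lower quartile of all genes over the arrays. HOXB2 was high only in control cells after day 0 and in depleted cells at day 3, and HOXD1 and the shared probe set were high only on the 2 rescue arrays.

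In rescue cells HOXB6 was lower than in depleted cells, HOXB2 was lower than in control cells, and HOXD1 was higher than in both. Relative to depleted cells at day 5, 2 of 27 members were called (HOXD1 higher, HOXB6 lower), against 39.5% of all genes. Relative to control cells at day 5, 2 were called (HOXD1 higher, HOXB2 lower), against 23.3% of all genes. The 2 comparisons share the rescue arrays, and their medians over the members were -0.06 and 0.07, against -0.03 and 0.02 over all genes.

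HOXB6 read 4.42 and 4.26 in rescue cells, against 5.23 and 5.53 in depleted cells at day 5, and was 2.05-fold lower without overlap (-1.04 ± 0.25 log2, SE, adjusted p = 0.00524 in limma). Against control cells the difference was 0.00 ± 0.25 (adjusted p = 0.993). The mean of the 17 mesoderm markers was 4.41 and 4.48 in rescue cells and 5.49 and 5.62 in depleted cells at day 5, against 4.88 and 5.11 in control cells. Of them, 10 were lower and none higher in rescue than in depleted cells, where 17.6% of all genes were lower and 21.9% higher. In depleted cells 3 were higher and 2 lower than in control cells, near the 16.5% and 16% of all genes. FOXF1 and TBX20 were near background in all 3 groups, FOXC2 and MEOX1 in rescue and control cells, and TBXT in rescue cells. Their part in the HOXB6 result was not tested.

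HOXB2 read 3.87 and 3.49 in rescue cells, against 6.17 and 5.01 in control cells at day 5, and was 3.76-fold lower without overlap (-1.91 ± 0.46 log2, SE, adjusted p = 0.00994 in limma). It differed from depleted cells by 0.05 ± 0.46 (adjusted p = 0.952), and the rescue arrays lay on both sides of the depleted ones. The call against control was lost without rescue replicate 2 (-1.72, adjusted p = 0.0806) or control day 5 replicate 1 (-1.33, adjusted p = 0.101), and with the rescue arrays averaged to 1 sample (adjusted p = 0.0567). Over the same arrays, 9 of the 10 definitive endoderm markers were higher in rescue than in depleted cells and 1 was lower (21.9% and 17.6% of all genes). In rescue cells 7 of the 10 were below control (9.57% of all genes).

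HOXD1, the lowest numbered gene of its cluster, acts in mice in pain-sensing neurons and otherwise in early axial patterning. It read 4.01 on both rescue arrays, against 2.40 and 2.26 in depleted cells and 2.45 and 2.30 in control cells at day 5, and it was near background in all groups other than rescue. It read 2.15 and 2.35 in depleted cells at day 3 and 2.41 and 2.29 at day 4, and 2.59 and 2.10 in control cells at day 3 and 2.73 and 2.19 at day 4. The rise was 1.68 ± 0.18 log2 over depleted cells (SE, adjusted p = 1.1e-05 in limma) and 1.63 ± 0.18 over control cells (adjusted p = 5.49e-05). It was called with any 1 array left out. In control cells at day 0 HOXD1 read 2.39 and 2.28. The rescue arrays had the lowest bioB of all, and a technical part in their HOXD1 level cannot be told apart from the group.

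The probe set shared by HOXD3 and HOXD4, both of which pattern the upper neck vertebrae in mice, was looked at after its values were seen and had the same form. It read 4.29 and 4.33 on the rescue arrays, against 1.85 to 2.43 on the other 14. In a fit of each of the 46826 annotated probe sets by itself, it was 2.11 ± 0.14 log2 above depleted cells (SE, adjusted p = 1.81e-07 in limma) and 2.35 ± 0.14 above control cells (adjusted p = 2.95e-07). The call held with any 1 array left out. The transcript accession given for this probe set is assigned to HOXD3 in RefSeq. The probe set of HOXD4 alone read 3.04 and 3.21 in rescue cells, against 2.85 and 2.73 in depleted cells (0.33 ± 0.14 in the fit by gene, adjusted p = 0.0828).

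HOXD8, HOXD9, HOXD10, HOXD12 and HOXD13 were not called between rescue cells and depleted or control cells, and the probe set shared by HOXD10 and HOXD11 differed from depleted cells by 0.10 ± 0.14 (SE, adjusted p = 0.63 in limma). These probe sets are mostly dim, and a missing call does not show an unchanged level. A dimmer second probe set of HOXD10 read 2.71 and 2.77 in rescue cells, against 2.005 to 2.54 on the other 14 arrays, and was not called (0.27 ± 0.13 over depleted cells, adjusted p = 0.148, and 0.36 ± 0.13 over control cells, adjusted p = 0.0832). Of the 4 genes that flank the HOXD cluster, named after their values were seen, EVX2 and MTX2 differed between rescue and depleted cells by -0.01 ± 0.13 (adjusted p = 0.965) and 0.12 ± 0.10 (adjusted p = 0.382). LNPK was 0.82 ± 0.20 higher (adjusted p = 0.00483) and HNRNPA3 0.33 ± 0.11 higher (adjusted p = 0.0355). They differed from control cells by 0.08 ± 0.20 (adjusted p = 0.823) and -0.14 ± 0.11 (adjusted p = 0.453).

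The RefSeq promoter windows (GRCh38.p14, 250 bases before to 50 after the annotated start, plus strand) of 3 genes are shown, HOXD1 because it rose in rescue cells, and HOXD3 and HOXD4 because they share the probe set that did. The windows were searched on both strands for the GATA motif, taken as the word AGATAA or the word AGATAG, or these with T as the first base (TGATAA or otherwise TGATAG), and matches are in capitals. Such a word occurred in 8769 of the 35116 promoter windows of the same length (25%). The windows of HOXD3 and HOXD4 each held 1 match, at base 174 and base 192, and that of HOXD1 held none. They held 25, 4 and 36 CG pairs for HOXD3, HOXD4 and HOXD1, against a median of 14 over all windows. No binding was measured here. The windows were HOXD1 at chr2:176188418-176188717, HOXD3 at chr2:176157057-176157356 and HOXD4 at chr2:176151300-176151599.
HOXD1: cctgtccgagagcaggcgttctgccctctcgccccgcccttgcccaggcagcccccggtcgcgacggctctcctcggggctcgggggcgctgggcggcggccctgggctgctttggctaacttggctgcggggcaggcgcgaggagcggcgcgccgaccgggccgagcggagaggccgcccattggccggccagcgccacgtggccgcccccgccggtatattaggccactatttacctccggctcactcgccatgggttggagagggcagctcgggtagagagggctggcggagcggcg
HOXD3: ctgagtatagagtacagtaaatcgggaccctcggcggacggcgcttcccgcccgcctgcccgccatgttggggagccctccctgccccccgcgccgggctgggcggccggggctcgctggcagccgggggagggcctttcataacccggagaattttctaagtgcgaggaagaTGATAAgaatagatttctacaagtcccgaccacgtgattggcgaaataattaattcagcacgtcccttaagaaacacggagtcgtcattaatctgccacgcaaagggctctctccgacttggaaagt
HOXD4: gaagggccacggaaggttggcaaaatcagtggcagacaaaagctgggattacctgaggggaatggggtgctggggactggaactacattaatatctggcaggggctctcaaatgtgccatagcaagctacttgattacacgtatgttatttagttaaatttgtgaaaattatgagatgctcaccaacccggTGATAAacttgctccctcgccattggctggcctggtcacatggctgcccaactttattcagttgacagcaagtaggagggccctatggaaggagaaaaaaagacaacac

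The choice of probe set decided what was seen for HOXB3, the neighbour of HOXB2, known in mice for hindbrain and neck patterning. Its brightest probe set, used in the fit by gene, was flat (group means 3.69 to 3.98). Its 4 probe sets were numbered by mean level, and probe set 3, examined after the disagreement was seen, had its high and low groups where HOXB2 did, other than in rescue cells. It read 4.57 and 5.35 in depleted cells at day 3, 3.44 and 2.74 at day 4 and 3.08 and 3.19 at day 5, and 2.20 and 2.27 in rescue cells. In control cells it read 2.38 and 1.52 at day 0, 4.97 and 4.19 at day 3, 5.66 and 3.45 at day 4 and 6.002 and 3.47 at day 5.

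As for HOXB2, control replicate 1 lay above control replicate 2 at each of days 3, 4 and 5, and in depleted cells at day 3 replicate 2 was the higher. Fitted by itself, this HOXB3 probe set was higher in control cells at day 3 than at day 0 by 2.62 ± 0.73 log2 (SE, adjusted p = 0.0181 in limma) and at day 5 by 2.78 ± 0.73 (adjusted p = 0.0106). The difference of rescue from control cells at day 5 was -2.50 ± 0.73 (adjusted p = 0.0298). Depleted cells did not overlap control cells at days 4 and 5 and differed by -1.47 ± 0.73 (adjusted p = 0.185) and -1.60 ± 0.73 (adjusted p = 0.129), which were not called. These values rest on single arrays: the day 5 rise was 1.51 without control replicate 1 (adjusted p = 0.144), and the rescue difference was -1.23 (adjusted p = 0.288).

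Of the other HOXB3 probe sets, probe set 2 was 0.59 ± 0.15 higher in control cells at day 5 than at day 0 (SE, adjusted p = 0.00814 in limma) and was lower in rescue than in control cells (-0.72 ± 0.15, adjusted p = 0.00457). Probe set 4 was lower in rescue than in control cells (-1.45 ± 0.46, adjusted p = 0.0417), a call lost in 7 of the 16 omissions of 1 array (-2.17 to -0.73, adjusted p up to 0.355). Over the 49 HOX probe sets, 1, 4 and 4 were called between depleted and control cells at days 3, 4 and 5, against 2.61%, 23.8% and 28% of all probe sets. The day 3 call was a probe set of HOXB1, and HOXB9 was not called in this fit (adjusted p = 0.0571). Between control cells at days 3 and 5 and those at day 0, 4 and 3 were called, against 24.6% and 30.3%. In rescue cells, 3 were called against depleted cells and 7 against control cells, with 34.8% and 19.1% of all probe sets called.

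**Figure D4:**
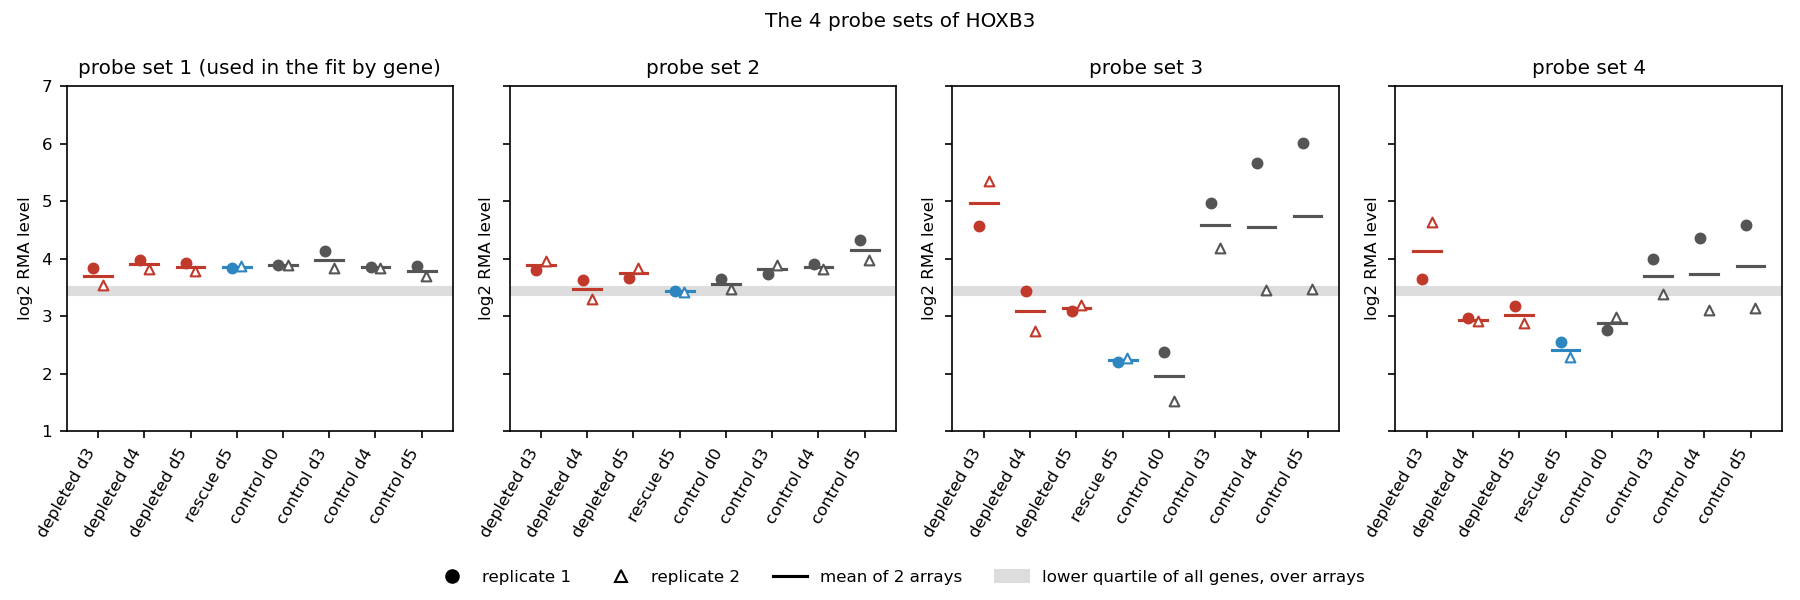
Log2 level on each of the 16 arrays for the 4 probe sets of HOXB3 (circles, replicate 1; triangles, replicate 2; lines, mean of 2; grey band, lower quartile of all genes over the arrays); each panel is its own scale of brightness. The brightest probe set stayed between 3.69 and 3.98 in group mean, while probe set 3 read 2.20 and 2.27 in rescue cells, 1.52 on the lowest day 0 array and 6.002 on the highest control array of day 5.

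Genes that act with or upstream of HOX genes differed between depleted and control cells in both directions at day 5. These are differences between the lines at that day, not changes over time. Of the 8 measured TALE cofactors, 4 were lower and 1 was higher in depleted than in control cells, with a median difference of -0.39. Over all genes, 16.5% were higher and 16% lower in this comparison, with a median of 0.04. This is the background for this and the following lists. The lower ones were PBX2 (-2.14 ± 0.23 log2, SE, adjusted p = 1.56e-05 in limma), MEIS2 (-1.82 ± 0.31, adjusted p = 6.52e-04), PBX3 (-0.52) and PKNOX1 (-0.49). They are partners that help HOX proteins choose their DNA sites. MEIS2 was near background in depleted cells at day 5 (3.26). Between control cells at day 3 and day 0, 4 of the 8 rose and none fell (13.2% and 14.6% of all genes).

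Of 17 measured CDX and other posterior factors, 5 were higher and 4 lower in depleted than in control cells at day 5. The higher ones included TBXT, the T-box factor of the primitive streak (3.43), and WNT5A, a WNT ligand (2.00). The lower ones included FGF17, an FGF ligand (-4.16), and GDF11, a TGF-beta family ligand (-1.73). FGF17 was also among the definitive endoderm markers used here, and TBXT among the mesoderm markers. Of 15 retinoic acid genes, 1 was higher and 5 were lower in depleted cells. CYP26A1, which breaks down retinoic acid, and the receptor gene RARB were lower by 3.38 and 2.72. The binding protein gene CRABP2 was also lower (-0.79), and DHRS3, a retinal reductase, was higher by 1.06. In group mean, RARB read 3.64 at day 3 and 4.23 at day 5 in depleted cells, against 4.26 and 6.95 in control cells.

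Of 21 Polycomb subunits and H3K27 demethylases, 6 were higher and 6 lower in depleted cells. PHF19 (1.84), PHC1 (1.42) and JARID2 (0.96) were among the higher and PHC2 among the lower (-1.32). Of 14 genes listed for Trithorax, MLL complexes and factors linked to MLL, none was higher and 6 were lower. Among them were MLLT3 (-2.39), ASH2L (-2.32), AFF1 (-0.83) and KMT2C (-0.62), and MLLT3 was near background in depleted cells at day 5 (3.16). Among 14 neighbouring and ParaHox homeobox genes, MNX1, a pancreas and motor neuron factor, was lower by 3.44. GBX2, a hindbrain boundary factor, was higher by 0.61. GBX2 was near background in both groups at day 5, at 3.17 in depleted and 2.56 in control cells.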

How the data were processed

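H1 huESC RNA was hybridised to 16 PrimeView arrays, 2 per group. The authors normalised the scans by RMA in Partek (version not stated) and deposited log2 values for 49395 probe sets, from 1.038 to 13.75. RMA gives no detection call and compresses differences of dim probe sets. Genes were named by the platform annotation: 44994 probe sets named 1 gene, 1832 several and 2569 none. HOX genes had 47 probe sets of their own and 2 shared. Where a gene had several (13 HOX genes, up to 4), the one of highest mean over the arrays stood for it. Names and promoters came from RefSeq tables, which held promoters for 10 of the 27 members and changed 0 symbols.

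A mean per group was fitted with limma 3.58.1 in R 4.3.3 (8 residual and 4.58 prior degrees of freedom), two-sided, with Benjamini-Hochberg adjustment over 18132 genes, and checked on simulated data. The median SE was 0.152, and 0.215 for differences between effects. The number of arrays limits the precision. Rescue replicates lay closest (SD 0.105 over genes, against 0.163 to 0.245), so both treatments of them are given. Members called in any comparison are given on every array, and up to 4 genes per list with the largest called difference at day 5 are named. The members and lists were chosen with earlier results of these data known. The alternatives were the mean of probe sets, a filter on low values, cyclic loess, another prior, fits of the compared groups alone, the replicate block, the methods' thresholds, rescue as 1 sample and each array left out.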

Additional observations from a re-analysis of the deposited data

Results flagged for a closer look

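The effect of GATA6 depletion differed between day 4 and day 3 by a test of that difference in HOXB2 (-2.11), HOXB4 (-0.80) and HOXB9 (-0.90, log2). HOXB2 and HOXB4 were lower in depleted cells at day 4 and not called at day 3, while HOXB9 was higher in depleted cells at day 3 and not called at day 4. These were 11.1% of the members, against 15.3% of all genes. The calls of HOXB2, HOXB4 and HOXB9 were lost in 11, 6 and 7 of the 16 omissions of 1 array. That of HOXB4 was also lost with the mean of its probe sets.

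Signals also appeared in probe sets outside the choice of 1 per gene. HOXB3 probe set 3 was higher in control cells at day 5 than at day 0 (2.78) and lower in rescue than in control cells at day 5 (-2.50), and probe set 4 of the same gene was lower in rescue than in control cells (-1.45). With 1 array left out these 3 values came as near to 0 as 1.51, -1.23 and -0.73, and the calls were lost. The probe set shared by HOXD3 and HOXD4 was higher in rescue than in depleted cells (2.11) and than in control cells at day 5 (2.35).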

How the results depend on the processing

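No HOX call changed direction in any alternative. Of the 18 called results, 4 kept their call in every one that included the gene: HOXB2 between control days 3 and 0, between control days 5 and 0 and between depleted and control cells at day 4, and HOXD1 between rescue and control cells. Over all 18 results, 26 of 140 values under the other settings and 53 of 288 with 1 array left out lost the call.

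With 1 array left out, the number of HOX genes called was 0 to 1, 1 to 3 and 1 to 2 between depleted and control cells at days 3, 4 and 5. It was 2 to 3 and 1 to 2 between control cells at days 3 and 5 and day 0, 1 to 2 between depleted cells at day 5 and control cells at day 0, 2 to 3 and 1 to 2 between rescue cells and depleted or control cells, 0 to 3 for the day 4 effect less the day 3 effect and 0 for the day 5 effect less the day 4 effect.

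With the mean of all probe sets, 1 member was called at day 4 (HOXB2) and 2 between control days 5 and 0 (HOXB2 and HOXB3). Leaving out genes below the 25th percentile of mean level removed HOXD1, which left 1 member called in each rescue comparison. Fits of the compared groups alone called 0 members between depleted and control cells at day 3, 3 between depleted cells at day 5 and control cells at day 0 (HOXB2, HOXB6 and HOXB8), 4 between rescue and depleted cells (HOXB6, HOXB8, HOXD1 and HOXD4) and 1 for the day 4 effect less the day 3 effect (HOXB4). The methods' thresholds (a z-score of 3 or more in size, with an unadjusted p no higher than 0.01) called 0 members at days 3 and 5, 1 at day 4 (HOXB2), 1 between control days 3 and 0 (HOXB2), 0 between depleted day 5 and control day 0, 0 between rescue and depleted cells, 1 between rescue and control cells (HOXD1) and 0 for the day 4 effect less the day 3 effect. With rescue as 1 sample, assumed to vary like the other groups, 0 members were called at day 3, 1 between rescue and control cells (HOXD1) and 1 for the day 4 effect less the day 3 effect (HOXB4). Each probe set by itself, chosen after seeing the data, gave 2 genes between control days 5 and 0, 2 between depleted day 5 and control day 0 and 4 between rescue and control cells. Unless stated by the construction, the cause was not tested. The methods' z-score threshold admits only the largest differences of any comparison. Apart from the fit of each probe set by itself, the share of all genes called was not recorded for the alternatives in this section. Their counts therefore show how the calls depend on processing, and do not set HOX genes against other genes.

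The labels share only replicate numbers, and these were not taken as pairs: over the 28 pairs of groups, same-numbered deviations correlated at -0.07 to 0.25, and 4 exceeded 0.1. Among control cells at days 3 to 5 the correlations were 0.09 to 0.25. With the replicate block, 3 members were called between depleted and control cells at day 5 (HOXB9 added), and the other counts did not move. Cyclic loess shifted the median of all genes by at most 0.05 and added HOXD4 between rescue and depleted cells, giving 3.

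With 2 arrays per group, absence of a call does not show an unchanged level, and 17 of the 27 members lay below the lower quartile of genes by mean level.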

Other observations

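In the fit of each probe set by itself, 6 further HOX probe sets were called outside the choice of 1 per gene, with differences below 1 log2. Of the 4 probe sets of HOXB13, the highest numbered gene of its cluster, one of the dimmer ones read 3.88 and 3.84 in depleted cells at day 5, against 3.04 and 3.23 in control cells (0.72, adjusted p = 0.00885 in limma). The brightest HOXB13 probe set overlapped between those groups, with 5.51 and 5.26 in depleted cells, against 5.02 and 5.32 in control cells. Another probe set of HOXB13 was also higher (0.54, adjusted p = 0.0127), while the remaining one was lower in rescue than in control cells at day 5 (-0.54, adjusted p = 0.0364). A probe set of HOXB1 was lower in depleted than in control cells at day 3 (-0.58, adjusted p = 0.0335), one of HOXD8 was lower at day 4 (-0.48, adjusted p = 0.039), and one of HOXD9 was lower in depleted cells at day 5 than in control cells at day 0 (-0.45, adjusted p = 0.0331).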
